A study of Mus musculus with 9 samples.

Results

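Testis RNA of mice with 1 intact Prm2 allele (Prm2+/-) was compared with that of wild-type mice (Prm2+/+), gene by gene. The comparison took the 14142 of 38685 genes and loci of the deposited table whose mean over the 6 libraries concerned was 10 or more normalized counts, that is, gene counts divided by a size factor for each library. There were 3 libraries per genotype, which the labels give as separate samples of testis from C57BL/6 males, and nothing states that they came from separate litters or days, so the p-values measure the spread between these samples. The Prm2-deficient line was made by CRISPR/Cas9 editing of oocytes. Prm2+/- males have 1 altered and 1 intact allele, and the age of the animals is not given in the labels. Prm2-/- libraries (3) of the same strain entered the estimate of the spread and are shown beside single genes. The comparison asked which testis functions kept their RNA level with 1 Prm2 allele and which single genes differed.

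Protamines are small arginine-rich proteins that replace most histones in the nuclei of elongating spermatids and compact the DNA of sperm. The exchange runs by way of histone variants, hyperacetylation of histone H4 and the transition proteins. Protamine and transition protein genes are transcribed in round spermatids, and their mRNAs are stored under translational repression until elongation, so that RNA level and protein level are separated in time. In mice, Prm2 is made as a precursor that is processed after it has been deposited on DNA. Prm1, Prm2, Prm3 and Tnp2 form a cluster on chromosome 16, whereas Tnp1 lies on chromosome 1.

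The promoter windows of the packaging genes of the cluster are shown because their transcripts are the ones at stake when 1 Prm2 allele is lost, and those of U2af1 and Usb1 because these genes were listed at 0 in all libraries of 1 of the genotypes. Each window runs from 250 bases before the annotated start to 50 bases after it (RefSeq, GRCm38.p6), is written 5′ to 3′ on the strand of the gene, and has capitals where a searched motif was found.
Prm2, chr16:10792056-10792355, minus strand: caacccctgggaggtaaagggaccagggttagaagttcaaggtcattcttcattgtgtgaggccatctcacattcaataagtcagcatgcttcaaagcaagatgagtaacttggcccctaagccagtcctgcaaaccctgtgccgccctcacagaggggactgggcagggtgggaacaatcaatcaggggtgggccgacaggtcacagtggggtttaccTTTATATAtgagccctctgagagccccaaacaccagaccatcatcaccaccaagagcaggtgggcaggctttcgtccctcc
Prm1, chr16:10796774-10797073, minus strand: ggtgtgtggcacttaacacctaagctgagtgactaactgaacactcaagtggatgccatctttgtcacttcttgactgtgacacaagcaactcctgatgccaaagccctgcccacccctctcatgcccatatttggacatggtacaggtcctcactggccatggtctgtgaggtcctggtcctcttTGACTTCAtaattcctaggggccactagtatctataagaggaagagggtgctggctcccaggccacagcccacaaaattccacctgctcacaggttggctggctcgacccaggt
Tnp2, chr16:10788606-10788905, minus strand: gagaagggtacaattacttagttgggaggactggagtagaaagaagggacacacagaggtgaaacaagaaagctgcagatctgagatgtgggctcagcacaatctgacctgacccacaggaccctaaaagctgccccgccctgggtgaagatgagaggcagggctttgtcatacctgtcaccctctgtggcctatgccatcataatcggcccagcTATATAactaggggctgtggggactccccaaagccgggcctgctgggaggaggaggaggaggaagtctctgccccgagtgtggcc
U2af1, chr17:31658715-31659014, minus strand: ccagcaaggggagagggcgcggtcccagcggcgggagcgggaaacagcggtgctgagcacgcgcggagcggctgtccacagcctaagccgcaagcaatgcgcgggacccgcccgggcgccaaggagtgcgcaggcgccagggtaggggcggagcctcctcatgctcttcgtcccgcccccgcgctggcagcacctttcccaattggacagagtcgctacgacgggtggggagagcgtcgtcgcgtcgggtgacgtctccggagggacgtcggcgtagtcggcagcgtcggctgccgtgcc
Usb1, chr8:95332034-95332333, plus strand: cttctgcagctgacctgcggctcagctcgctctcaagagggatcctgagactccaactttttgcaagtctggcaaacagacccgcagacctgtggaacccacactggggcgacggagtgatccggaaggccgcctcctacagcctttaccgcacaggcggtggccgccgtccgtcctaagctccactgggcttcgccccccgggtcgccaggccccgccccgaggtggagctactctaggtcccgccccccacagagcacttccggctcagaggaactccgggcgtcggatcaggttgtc

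The motifs were TATATA and TATAAA, forms of the TATA box, and TGACGTCA and TGACTTCA, the full site of the cAMP response element and a variant of it that spermatid factors of the CREM family can bind. Both strands were searched. The window of Prm2 held TATATA on its own strand and TATAAA on the other strand, in an overlapping run that began 31 bases before the start, while that of Tnp2 held TATATA and that of Prm1 held TGACTTCA. The windows of U2af1 and Usb1 held none of the 4. Among all 32851 promoter windows of this length, 5.67% held TATATA, 13.6% TATAAA, 1.79% TGACGTCA and 1.52% TGACTTCA. GC content was 54.0% in the Prm2 window, 72% in that of U2af1 and 65.3% in that of Usb1.

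The recovered read counts behind the normalized values summed to 3629929 to 4490411 per library. The level of the targeted transcript did not check the labels, because Prm2 RNA was not lower in the libraries labelled Prm2+/- or in those labelled Prm2-/-. Replicate 3 of Prm2+/+ stood apart from the others. It had the fewest entries above 0 (19028, against 19873 to 20526 in the other 8 libraries), and 67 genes were listed at 0 in it while the other 8 libraries averaged 50 or more, compared with 10 to 17 such genes in each of the others. Parp2 and Sdhd, genes that most cells use, were listed at 0 in it, so that a 0 is given below as listed, and no fold change is given where a whole genotype is at 0. Genes with a 4-fold or larger span between libraries of the same genotype were common, with 1631 (11.5%) in Prm2+/+ and 1036 (7.33%) in Prm2+/-, or 2160 (15.3%) in either.

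The targeted gene, Prm2 (ENSMUSG00000038015; GRCm38 chromosome 16, 10791380 to 10796134, minus strand), had 29757, 29716 and 39665 normalized counts in the Prm2+/+ libraries and 30174, 31011 and 34487 in the Prm2+/- libraries. The ranges overlapped, and the highest of these 6 values belonged to replicate 3 of Prm2+/+. The Prm2-/- libraries had 34660.3, 36004 and 42766, so this RNA was not lower with no intact allele either, and its level does not report how many intact alleles a library has. The log2 fold change (LFC, Prm2+/- over Prm2+/+) was -0.04 with a 95% confidence interval of -0.34 to 0.26 (limma adjusted p = 0.951). Without replicate 3 of Prm2+/+ the LFC was 0.10 and not called. The table does not separate the alleles, so the values are sums over both.

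The transcripts of the other protamines and of the transition proteins had intervals within 0.5 of 0 as well. Prm1 had 111606, 102155 and 92615 normalized counts in Prm2+/+ and 98168, 106830 and 105593 in Prm2+/-, an LFC of 0.02 (interval -0.14 to 0.18). Tnp1, the transition protein gene outside the cluster, which overlaps another annotated gene, had 71441, 66174 and 72964 in Prm2+/+ and 65183, 69002 and 70894 in Prm2+/-, an LFC of -0.04 (interval -0.15 to 0.08). Tnp2 gave 25301, 23037 and 30662 in Prm2+/+ and 24326, 24355 and 23164 in Prm2+/-, an LFC of -0.13 (interval -0.35 to 0.09). Together with Prm2, these were among the 10 genes with the most normalized counts in Prm2+/+ testis, and the genotypes overlapped for each of them. Prm3, an acidic protein encoded within the cluster, gave an LFC of -0.11 (interval -0.39 to 0.16).

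Of the 14 listed sperm chromatin proteins, 11 were tested, none (0) was called and 8 had an interval within 0.5 of 0 on the log2 scale. Across all 14142 genes, 8 (0.0566%) were called, that is, had an adjusted p (Benjamini-Hochberg) under 0.05 and an LFC beyond 0.5 in either direction. The interval lay within 0.5 of 0 for 3684 (26.1%) of them and within 1 for 9251 (65.4%). This share depended on level, with 4.21% of the genes at a mean of 10 to 50, 34.8% at 50 to 500 and 64.6% at 500 or more bounded within 0.5, so a missed call among low genes says little about their level. The median LFC was -0.04 for the list and 0.01 for all genes. Without replicate 3 of Prm2+/+ the median of the list was 0.03, and without replicate 2 it was -0.11. The spermatid linker histones H1fnt and Hils1 had LFCs of -0.03 and -0.04, and the histone variant gene H2al2a, whose product acts with the transition proteins, had an LFC of -0.11. The member farthest from 0 was H3f3a, a gene of the replacement histone H3.3, at 458, 466 and 202 in Prm2+/+ and 445, 470.4 and 525 in Prm2+/-, where replicate 3 of Prm2+/+ was the single low library (interval -0.23 to 1.13).

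**Figure D1:**
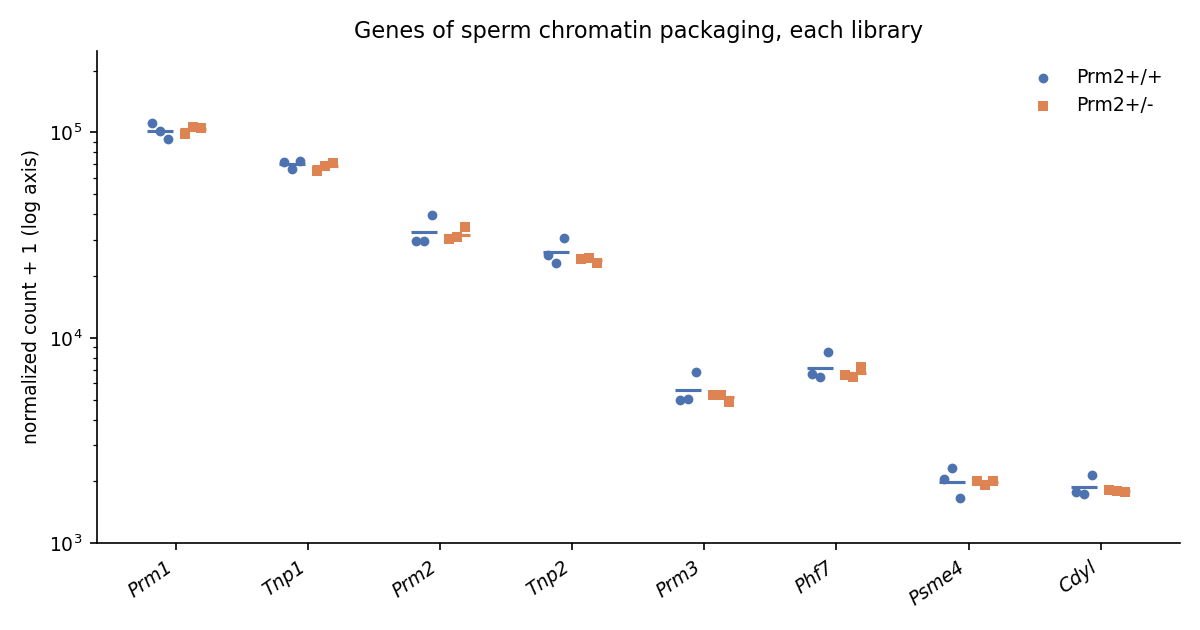
Normalized counts plus 1 (vertical log axis) of protamine, transition protein and histone eviction genes in each Prm2+/+ and Prm2+/- library, with short lines at the geometric mean of each genotype. For each gene shown, the 3 Prm2+/- libraries overlap or lie within the span of the Prm2+/+ libraries, with Prm1 the most and Cdyl the least abundant of them.

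Histone eviction in spermatids draws on ubiquitination, acetylation readers and a proteasome activator. Of the 11 genes listed for it, 9 were tested and 0 were called. Within 0.5 of 0 lay 4 intervals (26.1% of all genes), and within 1 lay 8 (65.4% of all genes). Phf7, an E3 ligase for histones, had 6641, 6478 and 8515 normalized counts in Prm2+/+ and 6573, 6431 and 7228 in Prm2+/-, an LFC of -0.09. Psme4, the activator PA200 that promotes degradation of acetylated histones, had an LFC of -0.01 (interval -0.29 to 0.27), and Cdyl, a chromodomain protein, one of -0.06 (interval -0.29 to 0.17). All 3 were bounded within 0.5. Sirt1, a deacetylase, was farthest from 0 at an LFC of 0.26 (interval -0.14 to 0.66).

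Within 1 Mb of Prm2, 19 further genes were tested, and none (0) was called. Their LFCs ran from -0.45 (2610020C07Rik) to 0.86 (4930509G22Rik) with a median of -0.0053. Tekt5, which encodes a tektin of the flagellum, had 668, 592 and 845 in Prm2+/+ and 621, 623 and 859 in Prm2+/-, an LFC of -0.0026, and Rpl39l, a testis form of a ribosomal protein gene, one of 0.10. At a share of 0.0566% called over all genes, 0 of 19 says little about the neighbours of the altered allele. Some of them had wide intervals, such as Clec16a (-2.06 to 1.34).

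The regulators that switch on spermatid genes were tested in full, 11 of 11, with 0 called, 3 bounded within 0.5 and 8 within 1. Gtf2a1l, a testis form of general factor TFIIA, had 2019, 1840.0 and 2295 normalized counts in Prm2+/+ and 1967, 2084 and 2096 in Prm2+/-, an LFC of 0.0038 (interval -0.21 to 0.21). Tcfl5, a helix-loop-helix factor of spermatocytes and spermatids, had an LFC of 0.07, and Tbpl1, the TBP-related factor needed for spermiogenesis, one of 0.16. Fhl5, the coactivator of CREM in testis, was farthest from 0 with 927, 821 and 1159 in Prm2+/+ and 92.9, 828 and 942 in Prm2+/-. Only replicate 1 of Prm2+/- was low, and its interval ran from -3.55 to 1.15.

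Among the 14 genes of mRNA storage and translation in spermatids, 0 were called, 5 were bounded within 0.5 and the median LFC was -0.01. Ybx3, a Y-box protein that binds stored mRNA, had 4687, 4677 and 4392 in Prm2+/+ and 4201, 4702 and 4288 in Prm2+/-, an LFC of -0.06. Pabpc2, a testis poly(A)-binding protein gene, had an LFC of -0.04. Pabpc1 stood at 9302, 9239.6 and 2324 in Prm2+/+ and 7929.9, 8342 and 7370.3 in Prm2+/-, so that replicate 3 of Prm2+/+ was the single low library. Ybx2, encoding the Y-box protein MSY2 that represses protamine mRNA, was at 37.1, 49.3 and 24.3 in Prm2+/+ and 4274, 41.1 and 37.1 in Prm2+/-. Replicate 1 of Prm2+/- alone was high, and the LFC of 2.38 had an interval of -1.34 to 6.11.

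Tarbp2, which encodes the TRBP protein that is needed for timely translation of protamine mRNA and assists Dicer, had the smallest p of the genes that were not called. It had 32.3, 4.29 and 16.6 normalized counts in Prm2+/+, 329, 363 and 379 in Prm2+/- and 354, 335 and 376 in Prm2-/-. The groups did not overlap, and the Prm2+/- and Prm2-/- libraries shared the high level. The LFC was 4.62 (interval 3.32 to 5.92, limma adjusted p = 0.0609). It passed the threshold in 7 of 21 alternative settings, with adjusted p-values from 4.3e-18 in DESeq2 to 0.276 in limma on the 6 libraries alone. Elavl1, an RNA-binding protein of the same list, had an LFC of -1.75 (interval -3.03 to -0.46).

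Genes of earlier germ cells gave no calls. Of 18 spermatogonial genes, 11 were tested and 2 were bounded within 0.5, with a median LFC of 0.07 that was -0.05 without replicate 3 of Prm2+/+. Dmrtb1, which controls the change from mitosis to meiosis, had 2691, 2528 and 3196 in Prm2+/+ and 2279.8, 2534 and 2746 in Prm2+/-, an LFC of -0.15 (interval -0.41 to 0.10). Ccnd2, a D-type cyclin, had an LFC of 0.36, Id4, a gene of stem cells, one of 0.12, and Stra8, which starts meiosis, one of 0.67 with an interval of -0.87 to 2.21. In whole testis, fewer cells of a type and less RNA per cell cannot be told apart.

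The 30 tested genes of meiotic synapsis and recombination had a median LFC of -0.02. Of them, 10 were within 0.5, 21 within 1 and 0 were called. Syce1, a central element protein of the synaptonemal complex, was the most abundant, at 2255, 2284 and 2377 in Prm2+/+ and 2310.4, 2232 and 2154 in Prm2+/- (LFC -0.05, interval -0.18 to 0.09). The meiotic cohesin gene Smc1b had an LFC of -0.05 and the axis gene Sycp2 one of -0.02, both bounded within 0.5. Spo11, which makes the breaks that start recombination, was listed at 9.50, 151 and 156 in Prm2+/+ and at 3.95, 7.31 and 8.84 in Prm2+/-. All Prm2+/- libraries and replicate 1 of Prm2+/+ were low, and the LFC of -3.09 was not called (interval -5.39 to -0.79).

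The piRNA pathway, which silences transposons in germ cells, had 17 genes tested, 0 called, 6 bounded within 0.5 and a median LFC of 0.06. Piwil1, the PIWI protein of pachytene spermatocytes and round spermatids, had 2808, 2792 and 2654 in Prm2+/+ and 2966, 3075 and 2805 in Prm2+/-, an LFC of 0.10 (interval -0.04 to 0.24). Gtsf1, a cofactor of PIWI proteins, had an LFC of 0.06. Mael, which acts in transposon silencing, was at 4761, 4454 and 4130.3 in Prm2+/+ and 226, 230.2 and 4851 in Prm2+/-. Its Prm2+/- libraries were divided, with 1 at the Prm2+/+ level and 2 far below it, and the interval of -6.29 to 0.67 reached across 0.

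Genes of sperm structure gave no calls (0). Of 20 tested genes of the acrosome and of sperm-egg fusion, 12 were within 0.5 (26.1% of all genes) and 0 were called. Spink2, a protease inhibitor of the acrosome, had 2799, 2723 and 3123 in Prm2+/+ and 2350.0, 2659 and 3015 in Prm2+/-, an LFC of -0.11. Adam3, a sperm surface protein needed for passage into the oviduct, had 1952, 1918 and 2221 in Prm2+/+ and 1621, 1725 and 1926 in Prm2+/-, an LFC of -0.21 with an interval that just left out 0 (-0.41 to -0.01) and an adjusted p of 0.841 in limma. Acrv1, an acrosomal matrix protein, had an LFC of -0.14. Cylc1, a cytoskeletal protein of the sperm head, was farthest from 0, at 235, 251 and 261 in Prm2+/+ and 246, 1775 and 1549.9 in Prm2+/-, with 1 Prm2+/- library at the Prm2+/+ level and 2 above it.

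The axoneme is the microtubule core of the flagellum. Of 34 tested genes, 19 were bounded within 0.5, 27 within 1 and 0 were called, and 8 had an LFC above 0 (51.6% of all genes), with a median of -0.11 that was -0.06 without replicate 3 of Prm2+/+. Rsph1, a radial spoke protein, had 5573, 5297 and 7173 in Prm2+/+ and 5486, 5181 and 5005 in Prm2+/-, an LFC of -0.19 (interval -0.45 to 0.06). Cfap206, which docks radial spokes, had an LFC of 0.03 (interval -0.16 to 0.23). Meig1, needed for the manchette and flagellum, stood at 2780.4, 2628 and 10072 in Prm2+/+ and 14067, 2639 and 15459 in Prm2+/-, where each genotype held both low and high libraries. Ccdc40, an assembly factor of inner dynein arms, was farthest from 0 with an LFC of -1.96 (interval -3.62 to -0.29).

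Outer dense fibres and the fibrous and mitochondrial sheaths stiffen the flagellum around the axoneme. All 17 listed genes were tested, 12 were bounded within 0.5, 15 within 1 and 0 were called. Smcp, a cysteine-rich protein of the mitochondrial capsule, had 10686, 9979 and 7978 in Prm2+/+ and 10349, 10651 and 10289.7 in Prm2+/-, an LFC of 0.14 (interval -0.11 to 0.39). Odf1, the main outer dense fibre protein, had an LFC of -0.12 (interval -0.42 to 0.19), and Oaz3, the antizyme of spermatids, one of -0.31. Akap4, the main fibrous sheath protein, was at 208, 2133 and 194 in Prm2+/+ and 1935, 1910.0 and 272 in Prm2+/-, so that both genotypes were divided and the interval was -1.24 to 3.60.

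Head shaping by the manchette and the nuclear envelope was represented by 14 tested genes. Of these, 5 were within 0.5 (26.1% of all genes), 12 within 1 (65.4% of all genes) and 0 called. Their median LFC was -0.11, and -0.01 without replicate 3 of Prm2+/+. Spag4, a SUN-domain protein of the spermatid nucleus, had 1362, 1316 and 1959 in Prm2+/+ and 1252, 1336 and 1477 in Prm2+/-, an LFC of -0.17, and Ift20, a transport protein of flagellum formation, one of -0.05 (interval -0.30 to 0.21). Spata6, a gene of the head-tail coupling apparatus, was at 275, 3022 and 189 in Prm2+/+ and 261, 3053 and 3042 in Prm2+/-. Replicate 2 of Prm2+/+ and replicates 2 and 3 of Prm2+/- shared the high level.

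Sperm use germ-cell forms of glycolytic enzymes for motility. Of 17 listed genes 16 were tested, 6 were bounded within 0.5 and 0 called. Gapdhs, the spermatogenic glyceraldehyde-3-phosphate dehydrogenase, had 4253, 4727 and 5737 in Prm2+/+ and 4060.3, 4374 and 4509 in Prm2+/-, an LFC of -0.18, and Pgk2, the retrogene of phosphoglycerate kinase, one of -0.07 (interval -0.32 to 0.19). Ldhc, the testis lactate dehydrogenase, had 32532, 30092 and 2505 in Prm2+/+ and 29886, 32405 and 36393 in Prm2+/-, with replicate 3 of Prm2+/+ far below the other 5 libraries. The summed level of the list was lowest in that library, with 25753 to 55924 in Prm2+/+ and 49032 to 56153 in Prm2+/-.

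The CatSper calcium channel and other ion transport proteins of sperm gave 18 tested genes, 9 within 0.5 and 0 called. Atp1a4, the sperm sodium pump, had 3357, 3315 and 4254 in Prm2+/+ and 3383, 3297 and 3064 in Prm2+/-, an LFC of -0.16. The CatSper subunit genes Catsperz and Efcab9 had LFCs of -0.16 and 0.04, while Kcnu1, the potassium channel of sperm, was at 15.2, 18.2 and 17.7 in Prm2+/+ and 356, 28.3 and 23.0 in Prm2+/-, high in replicate 1 of Prm2+/- alone. The median LFC of the list was -0.11, and without replicate 3 of Prm2+/+ it was 0.01.

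Testis-specific serine kinases phosphorylate sperm proteins late in spermiogenesis. Of 8 genes 6 were tested and 4 were bounded within 0.5, and although all 6 had an LFC under 0 (51.6% of all genes were above 0), none (0) was called and none of them separated the genotypes. The median LFC was -0.14, and without replicate 3 of Prm2+/+ it was 0.02, on the other side of 0. Tssk2 had 2624, 2523 and 3263 in Prm2+/+ and 2562, 2701 and 2799 in Prm2+/-, an LFC of -0.05, the cochaperone gene Tsacc one of -0.12, and Tssk6 one of -0.30 (interval -1.06 to 0.47).

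The scavengers of reactive oxygen species (ROS) gave 29 tested genes, of which 0 were called, 10 were bounded within 0.5 and 20 within 1, with a median LFC of 0.06. Sod1, cytosolic superoxide dismutase, had 3131, 3039 and 3432 in Prm2+/+ and 3116, 3052 and 3252 in Prm2+/-, an LFC of -0.03 (interval -0.20 to 0.15). Txndc2, the spermatid thioredoxin, had an LFC of 0.09, and Gpx4, the selenoperoxidase of the sperm capsule, one of 0.06 (interval -0.15 to 0.26). Prdx6, a peroxiredoxin, was at 7.60, 11.8 and 8.84 in Prm2+/+ and 568, 9.13 and 859.8 in Prm2+/-. Replicates 1 and 3 of Prm2+/- were high, replicate 2 was at the Prm2+/+ level, and the LFC of 4.05 had an interval of -0.46 to 8.57.

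Genes for strand breaks, apoptosis and protein quality did not pass the test either. Of 17 tested genes that handle DNA strand breaks, 8 were within 0.5 and 15 within 1. Polb, the repair polymerase, had 987, 881 and 1143 in Prm2+/+ and 963, 913 and 1034 in Prm2+/- (LFC -0.04), Top2a, topoisomerase II alpha, an LFC of -0.17, and Lig3, a DNA ligase, one of 0.01. Parp2, a sensor of DNA breaks, was listed at 0 in replicate 3 of Prm2+/+ alone and had 69.4, 49.3 and 0 in Prm2+/+ and 47.5, 56.6 and 75.1 in Prm2+/-. Of 11 tested genes of apoptosis and p53 targets, 3 were within 0.5. Bcl2l11, the BH3-only protein BIM, had 380.1, 347 and 319 in Prm2+/+ and 444, 412 and 429 in Prm2+/-. Its groups did not overlap, as for 9.40% of all genes tested in either direction, and the LFC of 0.30 had an adjusted p of 0.841 in limma. Mdm2, the ligase for p53, had an LFC of -0.05 (interval -0.28 to 0.19).

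Of 16 tested testis chaperones, 8 were within 0.5. Hsp90aa1, the inducible HSP90 that is abundant in germ cells, had 10624, 10415 and 13300.4 in Prm2+/+ and 12199.8, 11002 and 10592 in Prm2+/-, an LFC of -0.02, and Hspa4l, an HSP110 of germ cells, one of -0.08. Hspa2, the chaperone of transition proteins, was divided in both genotypes, at 3729.7, 138 and 3256 in Prm2+/+ and 127, 78.6 and 3210.2 in Prm2+/-. Proteasome subunits gave 33 tested genes with a median LFC of -0.01, 16 within 0.5 and 29 within 1. Psmc3 and Psmc2, both ATPases of the regulatory particle, had LFCs of -0.21 and 0.09.

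Genes of energy supply and protein synthesis were the largest lists. Of 42 nuclear genes of oxidative phosphorylation 28 were bounded within 0.5 and 0 called, and Cox8c, a testis form of a cytochrome c oxidase subunit, had 3687, 3569.6 and 3960.2 in Prm2+/+ and 3412, 3528 and 3794 in Prm2+/- (LFC -0.06). Of 10 mitochondrially encoded genes 4 were bounded, and their summed normalized counts were 80579 to 100443 in Prm2+/+ and 98365 to 102546 in Prm2+/-. mt-Nd4, a subunit of complex I, had an LFC of -0.08 (interval -0.29 to 0.12). The 78 tested cytosolic ribosomal protein genes had 54 within 0.5 and 70 within 1, a median LFC of -0.02, and summed levels of 96105 to 109599 in Prm2+/+ and 96449 to 102419 in Prm2+/-. A span of 4-fold or more within a genotype was seen for 2 of them, among them Rpl15, at 331, 320.4 and 11.0 in Prm2+/+ and 293, 294 and 347 in Prm2+/-.

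**Figure D2:**
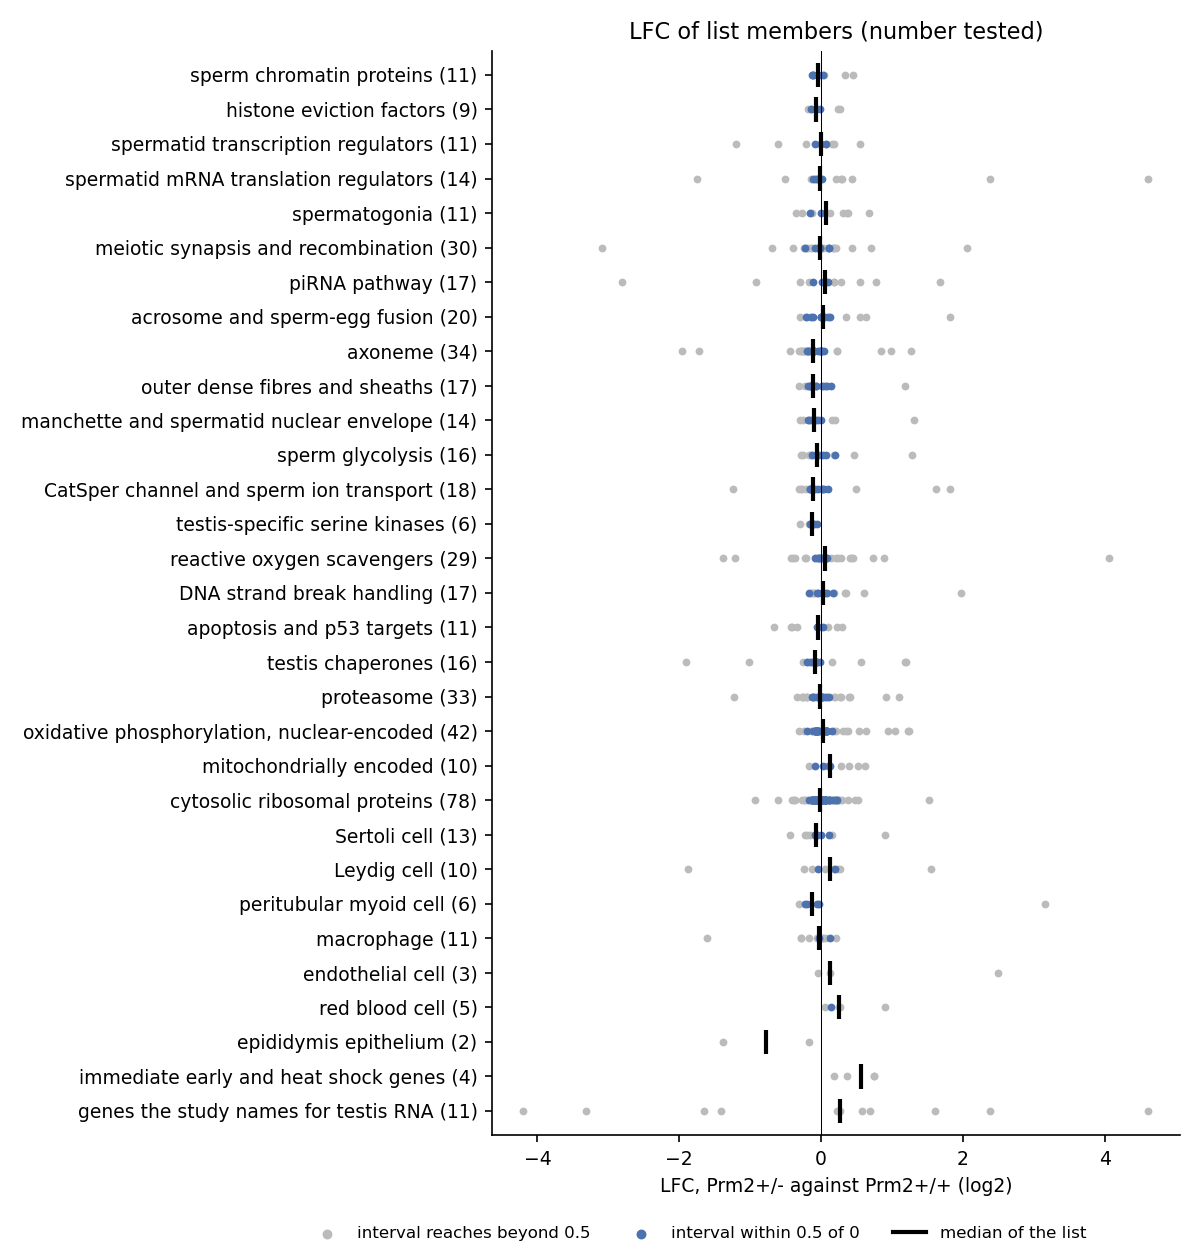
LFC between Prm2+/- and Prm2+/+ (horizontal axis, log2) of each tested member of the 31 gene lists, 1 point a gene, blue where the 95% interval lies within 0.5 of 0 and grey otherwise, with a black bar at the median of each list. The medians of the 22 lists of function lie between -0.14 and 0.12, and grey points reach beyond -4 and 4 without a call.

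Abundant markers of the somatic cells of the testis were present in both genotypes, while some low ones were listed at 0 in some libraries. Des, a peritubular myoid gene, had 33.3, 0 and 0 in Prm2+/+ and 31.6, 25.6 and 27.4 in Prm2+/-. C1qa, a macrophage gene, was at 30.4, 22.5 and 0 in Prm2+/+ and 0, 24.7 and 0 in Prm2+/-. Of 13 tested Sertoli cell genes 5 were within 0.5 and 11 within 1. Clu, a secreted chaperone of Sertoli cells, had 1734, 1846 and 2534 in Prm2+/+ and 1848, 1649 and 1679 in Prm2+/- (LFC -0.22). Of 12 listed Leydig cell genes 10 were tested, and Insl3 was not matched. Within 0.5 lay 2 of the 10, and 6 had an LFC above 0 (51.6% of all genes). Cyp17a1, an enzyme of androgen synthesis, had 1094, 972 and 1228 in Prm2+/+ and 1442, 1181 and 1143 in Prm2+/-. Its LFC was 0.19 (interval -0.08 to 0.46). Scarb1 and Nr5a1 had LFCs of -0.24 and -1.88, and Nr5a1 was listed at 0 in replicate 2 of Prm2+/-. The Leydig cell list summed to 2784 to 3048 in Prm2+/+ and 3013 to 3629 in Prm2+/-. Peritubular myoid genes had a median LFC of -0.13 over 6 genes, of which 1 (Des) lay above 0, against 51.6% of all genes. Acta2 had 227, 212 and 206 in Prm2+/+ and 185, 185 and 182 in Prm2+/-. Its LFC was -0.22 (interval -0.44 to -0.01, limma adjusted p = 0.841). The groups did not overlap for Acta2, as for 9.40% of all genes in either direction. Mylk and Actg2 had LFCs of -0.20 and -0.06. The list summed to 1157 to 1364 in Prm2+/+ and 1145 to 1195 in Prm2+/-. Of 11 tested macrophage genes 2 were within 0.5, and the list summed to 2951 to 3969 in Prm2+/+ and 2907 to 3038 in Prm2+/-. All of these lists had 0 calls.

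Genes of the epididymis, the endothelium and blood were followed as signs of other tissue. Of 8 epididymal genes 2 were tested and 4 were at 0 in every library, and their list summed to 34.3 to 98.8 in Prm2+/+ and 27.4 to 39.3 in Prm2+/-, with the highest value set by Gpx5 in replicate 1 of Prm2+/+. Hbb-bs, a globin gene, was at 258, 279 and 361 in Prm2+/+ and 298, 335 and 346 in Prm2+/-, and Hba-a2, another, at 169, 216 and 362 in Prm2+/+ and 228, 286 and 225 in Prm2+/-. Red blood cell genes summed to 679 to 1190.0 in Prm2+/+ and 911 to 1124 in Prm2+/- and endothelial genes summed to 76.0 to 86.2 in Prm2+/+ and 78.6 to 113 in Prm2+/-. Immediate early and heat shock genes, which respond to handling, gave 4 tested members, all 4 with LFCs above 0 (51.6% of all genes), and 0 calls. Egr1 had 14.3, 16.1 and 11.0 in Prm2+/+ and 17.8, 28.3 and 25.6 in Prm2+/-, an LFC of 0.74 (limma adjusted p = 0.841). The genotypes did not overlap for it, as for 9.40% of all genes in either direction.

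Over all 31 lists, 527 different genes were tested and 0 were called, against 8 of 14142 genes (0.0566%). With so few calls among all genes, 0 calls in a list does not show that its level was kept. Of the 527 genes, 250 (47.4%) were bounded within 0.5 and 403 (76.5%) within 1, against 26.1% and 65.4% of all genes. Since the share bounded differs with level and the lists were not matched for level, nothing particular to the lists is read from this. Of the 22 lists of testis function, none had a median LFC beyond 0.14 in either direction. With 1 library left out their medians ran from -0.20 to 0.17, and the sign turned for 11 of the 22 without replicate 3 of Prm2+/+ and for 17 without some library, so no direction is read from these medians.

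A list of 11 genes was followed for the testis RNA of the study. The paper's text names Ybx2 and Tarbp2 among them and does not name the other members. Ybx2 and Tarbp2 were chosen there on the difference between Prm2-/- and Prm2+/+ in these libraries. The list was made with earlier results of these data known, and its Prm2+/+ values are shared with that difference. Fam71f2 had 71.3, 45.0 and 45.3 in Prm2+/+ and 71.2, 60.3 and 60.1 in Prm2+/-, and Zmynd10, a dynein assembly factor, had an LFC of 0.23. Cfap126, a ciliary gene, had 29.5, 38.6 and 37.6 in Prm2+/+ and 57.3, 63.0 and 39.8 in Prm2+/-. Every Prm2+/- library lay above every Prm2+/+ library, as for 4.77% of all genes (LFC 0.57, interval 0.09 to 1.05). The Prm2-/- libraries had 811, 1021 and 1073 for Cfap126. Dyrk1b, a protein kinase, was divided, at 322, 333 and 421 in Prm2+/+ and 4.94, 2.74 and 330.5 in Prm2+/-. Ube2f, a conjugating enzyme for NEDD8, was at 353, 259 and 443 in Prm2+/+ and 351, 11.0 and 8.84 in Prm2+/-, with replicate 1 of Prm2+/- at the Prm2+/+ level. Hdac2, a histone deacetylase, had the same order, with 119, 111 and 93.9 in Prm2+/+ and 114, 20.1 and 15.9 in Prm2+/-. Bspry and Art1 were out of line in replicate 1 of Prm2+/- alone, Bspry high at 819, 47.5 and 45.1 and Art1 low at 5.93, 62.1 and 56.6 over the 3 Prm2+/- libraries. Trim24, a transcriptional cofactor, was low in replicate 3 of Prm2+/+ alone, with 1287, 1249.5 and 256 in Prm2+/+ and 1191, 1275 and 1139 in Prm2+/-. None of the 11 (0) was called.

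**Figure D3:**
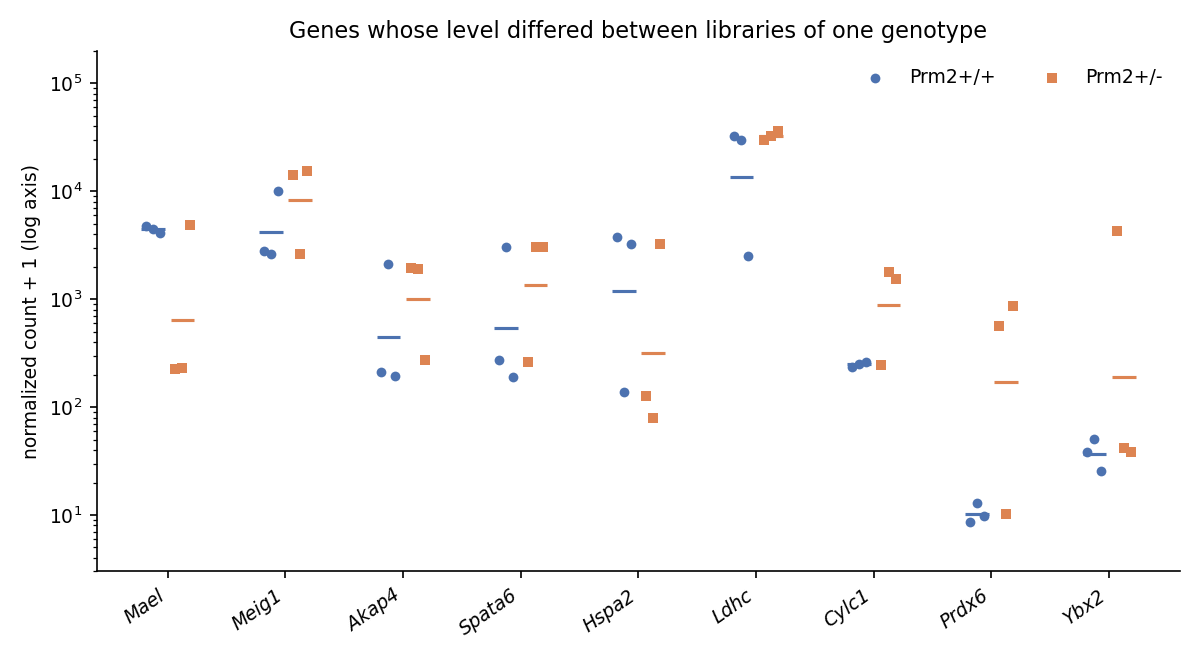
Normalized counts plus 1 (vertical log axis) of 9 testis genes in each Prm2+/+ and Prm2+/- library, with short lines at the geometric mean of each genotype, chosen to show levels divided between libraries of the same genotype. Mael, Akap4, Spata6, Hspa2, Prdx6 and Ybx2 each have both high and low Prm2+/- libraries, and Ldhc is low in 1 Prm2+/+ library.

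Single genes passed the test. Of 14142 genes, 5 were called higher (0.0354%) and 3 lower (0.0212%) in Prm2+/-, and 597 (4.22%) had an unadjusted p under 0.05. A span of 4-fold or more between libraries of the same genotype was seen for 2160 (15.3%). Whether the called genes belong to that pattern of divided levels was not tested. The higher genes were Usb1, Yjefn3, Syvn1, Trappc6a and Camta1, and the lower ones U2af1, Zmat5 and Rpap1. All 8 stand in the table under an identifier of merged StringTie transcripts, as did 13695 of the 14142 genes tested. All are protein-coding, they lie on 7 chromosomes, none is on chromosome 16, and none is on any of the 31 lists. All had a mean under 500 normalized counts, and 0 of the 1671 genes at 500 or more were called. edgeR called the same 8 genes, and DESeq2 called 26 higher and 33 lower genes with these 8 among them. Without 1 Prm2+/+ library limma called 23 higher and 7 lower (replicate 1), 31 and 3 (replicate 2) and 14 and 11 (replicate 3). Without a Prm2+/- library it called 7 and 15, 10 and 13, and 7 and 12 for replicates 1 to 3. Without a Prm2-/- library it called 7 and 6, 4 and 3, and 4 and 4 for replicates 1 to 3.

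**Figure D4:**
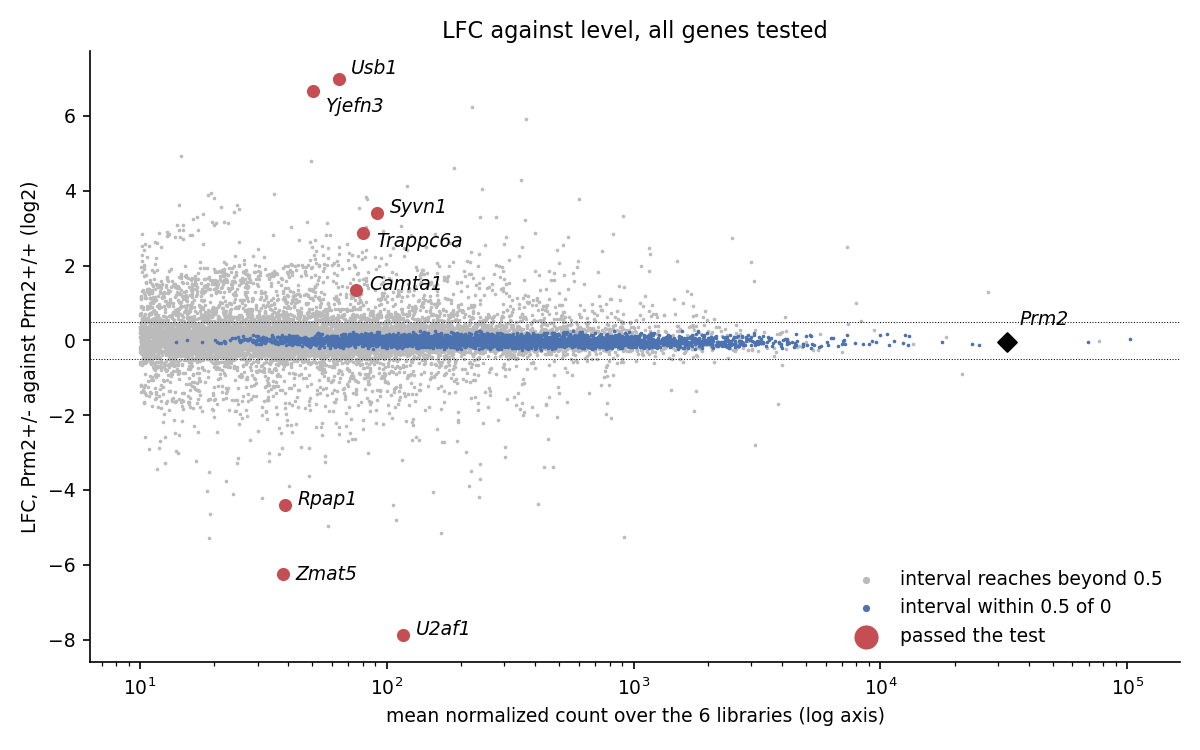
LFC between Prm2+/- and Prm2+/+ (vertical axis, log2) against the mean normalized count over the 6 libraries (horizontal log axis) for the 14142 genes tested, blue where the 95% interval lies within 0.5 of 0, red for the 8 called genes and a black diamond for Prm2. Dotted lines mark an LFC of 0.5 and -0.5, and the grey points narrow towards 0 with rising level.

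U2af1 (ENSMUSG00000061613, chromosome 17, 31647081 to 31658892, minus strand) encodes the small subunit of the U2 auxiliary factor, which recognises the AG at the end of introns. It had 221, 215 and 263 normalized counts in Prm2+/+ and was listed at 0 in all 3 Prm2+/- libraries, although it is a gene that most cells use, while the Prm2-/- libraries had 245, 211 and 249. Only the Prm2+/- libraries were at 0. It was called lower (limma adjusted p = 2.69e-07), and the call held in all 21 alternative settings. Whether a listed 0 is a missing transcript or a failed estimate was not tested. No other entry of the table lay within 5 kb.

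Zmat5 (ENSMUSG00000009076, chromosome 11, 4704678 to 4737669, plus strand) encodes a zinc finger protein of the minor spliceosome. It had 60.8, 65.4 and 103 in Prm2+/+, was listed at 0 in each Prm2+/- library and had 58.9, 56.8 and 68.6 in Prm2-/-, and it was called lower (limma adjusted p = 2.99e-05). Uqcr10, a complex III subunit that lies 336 bases away, had 972, 939 and 1330.4 in Prm2+/+ and 1104, 943 and 1157 in Prm2+/-, an LFC of -0.004, and Cabp7, which overlaps Zmat5, was listed at 0 throughout. Across all genes, U2af1 and Zmat5 were the only entries (2) listed at 0 in the 3 Prm2+/- libraries and at 20 or more in each of the other 6 libraries.

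Rpap1 (ENSMUSG00000034032, chromosome 2, 119763304 to 119787537, minus strand) encodes a protein associated with RNA polymerase II. It had 73.2, 65.4 and 85.1 in Prm2+/+, 1.98, 4.57 and 1.77 in Prm2+/- and 80.6, 60.9 and 61.2 in Prm2-/-. The Prm2+/- libraries held low values and lay below all others, a ratio of means of 26.9 and an LFC of -4.39 (SE 0.29, limma adjusted p = 0.00123).

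Usb1 (ENSMUSG00000031792, chromosome 8, 95332284 to 95347507, plus strand) encodes the exonuclease that trims the tail of U6 small nuclear RNA. It was listed at 0 in the 3 Prm2+/+ libraries and had 108, 129 and 147 in Prm2+/- and 103, 99.4 and 108 in Prm2-/-. It was called higher in Prm2+/- (limma adjusted p = 1.42e-06). Zfp319, which lies 334 bases away, had 50.4, 45.0 and 42.0 in Prm2+/+ and 54.4, 42.0 and 45.1 in Prm2+/- (LFC 0.04).

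Yjefn3 (ENSMUSG00000048967, chromosome 8, 69887788 to 69902712, minus strand), a gene of the YjeF domain family, was likewise listed at 0 in the 3 Prm2+/+ libraries, with 98.9, 92.3 and 110.5 in Prm2+/- and 90.6, 109 and 84.5 in Prm2-/-, and was called higher (limma adjusted p = 1.87e-06). Usb1 and Yjefn3 were the only entries (2) at 0 in all Prm2+/+ libraries and at 20 or more in each of the other 6. Yjefn3 overlaps Ndufa13 and Tssk6, which are more abundant, with 708, 682 and 909 in Prm2+/+ and 686, 659 and 810.3 in Prm2+/- for Ndufa13. When overlapping genes were summed into 1 locus, the LFC of the Yjefn3 locus was -0.22 (limma adjusted p = 0.851), and it was not called. Tssk6 and Ndufa13, with means of 3551 and 766 in Prm2+/+, outweigh Yjefn3 (101 in Prm2+/-) in this sum, so it cannot test the Yjefn3 entry.

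Syvn1 (ENSMUSG00000024807, chromosome 19, 6046576 to 6053712, plus strand) encodes HRD1, the ubiquitin ligase of protein degradation at the endoplasmic reticulum. It had 10.5, 13.9 and 22.1 in Prm2+/+, 149, 172 and 180.3 in Prm2+/- and 8.15, 14.2 and 9.50 in Prm2-/-, so that the Prm2+/- libraries alone were high. The ratio of means was 10.8 and the LFC 3.41 (SE 0.30, limma adjusted p = 0.00781). Mrpl49, which overlaps it and encodes a mitochondrial ribosomal protein, had 54.2, 62.2 and 58.6 in Prm2+/+ and 33.6, 61.2 and 61.9 in Prm2+/-, and the summed locus was still called with an LFC of 1.55 (limma adjusted p = 0.0196).

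Trappc6a (ENSMUSG00000002043, chromosome 7, 19508395 to 19516145, plus strand) encodes a subunit of the TRAPP complex, which tethers transport vesicles. It had 14.3, 30.0 and 14.4 in Prm2+/+, 145, 125 and 154 in Prm2+/- and 122, 132 and 135 in Prm2-/-, a ratio of means of 7.24 (LFC 2.87, limma adjusted p = 0.0116). The call was lost with only the 6 libraries compared (limma adjusted p = 0.116). Its neighbour Nkpd1 had an LFC of -0.30 and was not called.

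Camta1 (ENSMUSG00000014592, chromosome 4, 150917322 to 151861876, minus strand), which encodes a calmodulin-binding transcription activator, had the smallest difference, with 49.4, 41.8 and 36.5 in Prm2+/+, 108, 105 and 112 in Prm2+/- and 122, 109.6 and 107 in Prm2-/-. The LFC was 1.34 (SE 0.14, limma adjusted p = 0.0202). The call was lost with only the 6 libraries compared (limma adjusted p = 0.135), without any one of the Prm2+/- libraries (0.0505 to 0.0654) and without replicate 2 or 3 of Prm2-/- (0.0656 and 0.0632). Camta1 spans several small genes, and the summed locus of 8 entries had an LFC of 0.24 (limma adjusted p = 0.834). Vamp3 and 4930589P08Rik, with means of 358 and 420 in Prm2+/+, outweigh Camta1 (42.6) in this sum, so it cannot test the Camta1 entry.

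**Figure D5:**
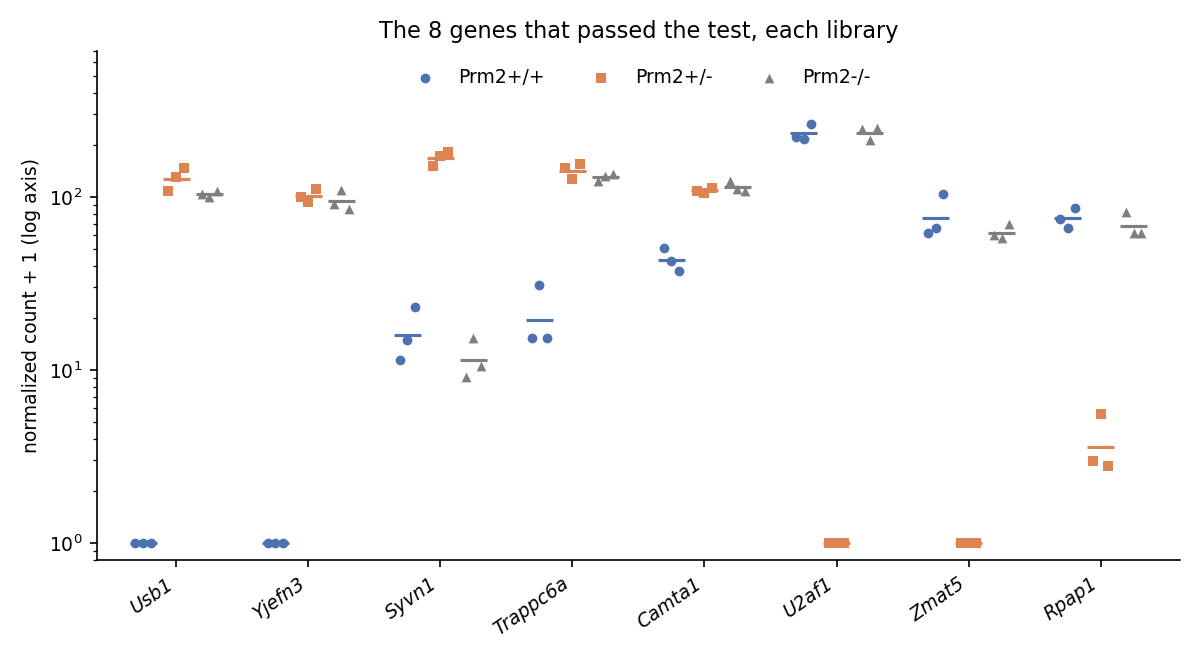
Normalized counts plus 1 (vertical log axis) of the 8 called genes in each library of the 3 genotypes, with short lines at the geometric mean. Prm2-/- libraries lie with Prm2+/- for Usb1, Yjefn3, Trappc6a and Camta1 and with Prm2+/+ for U2af1, Zmat5, Rpap1 and Syvn1, and points at 1 stand for a count of 0.

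The called genes thus fell into a pair of patterns across the 3 genotypes. For 4 of the 8 (Usb1, Yjefn3, Trappc6a and Camta1), all 3 Prm2-/- libraries lay on the Prm2+/- side of the midpoint between the Prm2+/- and Prm2+/+ means on the log2 scale, and for the other 4 (U2af1, Zmat5, Rpap1 and Syvn1) none did. Around the 8 genes, 13 other entries within 5 kb were tested, with LFCs of -0.30 to 0.38. Of these, 8 had an LFC opposite in sign to that of the called gene. An unadjusted p under 0.05 was seen for 0 of the 13 (4.22% of all genes), and 0 were called (0.0566% of all genes). At these shares, counts of 0 among 13 say little about the neighbours.

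Further genes separated the genotypes without passing the test in limma, and their values are given as a description. DESeq2 called 8 of these 10 genes, Tarbp2 included, all but Gcsh and Zfp287 (for example adjusted p = 8.29e-11 for Gpr160 and 3.07e-05 for Bre), and edgeR called 0. Bre, a subunit of the BRCA1-A and BRISC complexes, had 356, 366 and 316 in Prm2+/+ and 600.1, 590.1 and 496 in Prm2+/-, an LFC of 0.69 (limma adjusted p = 0.169). Klk1b24, a kallikrein with close relatives, had 35.2, 31.1 and 30.9 in Prm2+/+ and 77.1, 79.5 and 64.5 in Prm2+/-. For both genes every Prm2+/- library lay above every Prm2+/+ library. Gcsh, of the glycine cleavage system, had 56.1, 48.2 and 51.9 in Prm2+/+ and 94.9, 74.0 and 109 in Prm2+/-. Zfp287, a zinc finger gene, had 11.4, 9.64 and 13.3 in Prm2+/+ and 26.7, 22.8 and 25.6 in Prm2+/-. With Tarbp2 these were the 5 uncalled genes of smallest p with higher values in Prm2+/-.

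On the lower side, Gpr160, an orphan receptor, had 363, 605 and 244 in Prm2+/+ and 27.7, 13.7 and 37.1 in Prm2+/-, an LFC of -3.91 (interval -5.08 to -2.73, limma adjusted p = 0.0849). Bcas3 had 78.9, 84.7 and 117 in Prm2+/+ and 38.6, 27.4 and 26.5 in Prm2+/-, and 2010109A12Rik had 382, 343 and 355 in Prm2+/+ and 194, 196 and 186 in Prm2+/-, a narrow spread within each genotype. 4930412F12Rik gave an LFC of -1.12. Fank1, a spermatid gene with ankyrin repeats, was the most abundant of them, at 1857, 1735 and 2166 in Prm2+/+ and 1224, 1326 and 1253 in Prm2+/- (LFC -0.59, limma adjusted p = 0.222). The genotypes did not overlap for any of these 10 genes, a pattern shared by 674 genes (4.77%) with higher and 655 (4.63%) with lower values in Prm2+/- among all genes tested.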

How the data were processed

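Per the labels and the paper's methods, total RNA of testis without the tunica albuginea was sequenced with QuantSeq, which reads polyadenylated transcripts near their 3′ end. Per the submitters' processing notes, Trim Galore 0.4.5, HISAT2 2.1 on GRCm38, StringTie 1.3.3 and DESeq2 were used. The deposited values are a signal, the normalized counts that the authors made by dividing gene-level counts by 1 size factor a library. StringTie derives counts from coverage, so they may be on another scale than sequenced reads. All values (100%) were whole multiples of 1 step a library (tolerance 1e-06), which gave the reads used by the count tests, although for replicate 1 of Prm2+/- a step near 1 makes this a weaker sign. A total of 0 columns lacked a sample, and 38520 of 38685 entries (99.6%) matched GENCODE M21.

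limma (lmFit, eBayes with trend) was fitted to log2 of the normalized count plus 1 in all 9 libraries, with genotype as the only term, for genes with a mean of 10 or more over the 6 libraries compared. An LFC on this scale understates the change of low genes. A gene was called at an LFC beyond 0.5 together with an adjusted p (Benjamini-Hochberg) under 0.05. Intervals are 95% and not adjusted. Lists were described by counts and medians with no test. The members and lists were chosen with earlier results of these data known.

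Genes named are Prm2, the called genes with entries within 5 kb, and the 5 uncalled genes of smallest p in each direction. For each list they are the 3 most abundant members and that with the largest LFC (some given by count only). The list for the study's testis RNA, the most abundant genes and genes within 1 Mb of Prm2 are also named. H1fnt, Hils1, H2al2a and Elavl1 were named after their values were seen. Reads of overlapping genes may be assigned to either, and whether counting used strand is not given in the sources used here. Alternatives were TMM factors, pseudocounts of 0.5 and 5, other filters, only 6 libraries, a replicate block, overlapping genes left out or summed, edgeR, DESeq2 and each library left out. The fits were also run on simulated counts that had the same spread setting for every gene. That simulation held no levels divided within a genotype, so it says nothing about genes with such levels. Promoter windows came from RefSeq, in which all 9 genes looked up (Prm2 and the called genes) were found. The fits ran in R 4.3.3 with DESeq2 1.42.0, edgeR 4.0.16 and limma 3.58.1, and the summaries in Python 3.11.15 with pandas 2.3.3, numpy 2.4.6 and, for plots, matplotlib 3.10.9.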

Additional observations from a re-analysis of the deposited data

How the results depend on the processing

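The 5 higher, 3 lower and 3684 bounded genes moved with the settings as follows. Higher genes numbered 26 with DESeq2, 29 with DESeq2 on the 6 libraries compared, 9 with filterByExpr, 14 with no filter but a value above 0, 2 with overlapping genes left out and 3 with overlapping genes summed. Lower genes numbered 33 with DESeq2, 35 with DESeq2 on 6 libraries, 6 with only the 6 libraries in limma, 8 with no filter and 1 with a mean of 50 or more. Bounded genes numbered 2114 with overlapping genes left out, where fewer genes were tested (27.9% against 26.1% of those tested), and 2410 (17.0%) with DESeq2 on 6 libraries, an alternative for this count chosen after seeing the data. With each library left out in turn, 4 to 31 genes were higher (31 without replicate 2, 23 without replicate 1 and 14 without replicate 3 of Prm2+/+), 3 to 15 lower (15 without replicate 1 of Prm2+/-) and 2451 to 4667 bounded (4667 without replicate 3 of Prm2+/+), and the LFC of Prm2 ran from -0.11 to 0.10, with its sign turned (0.10) without replicate 3 of Prm2+/+. The cause of these moves was not tested. U2af1, Usb1, Yjefn3, Zmat5, Rpap1 and Syvn1 were called in every setting that tested them as single entries. Yjefn3 and Camta1 were not called as summed loci, where more abundant genes made up most of the sum.

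The replicate numbers are shared by the genotypes. Deviations of same-numbered libraries had correlations of -0.04 to 0.04 over 9 pairs, as did those of different numbers over 18 pairs. These values cannot show whether same-numbered libraries share a litter, a day or a preparation. With the replicate block, 3 genes were higher and 3 lower, and Camta1 and Trappc6a were not called (adjusted p = 0.122 for both in limma).

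The medians of the lists moved by less than 1 SD of the summed list between replicates in 215 of 217 values under other settings and in 265 of 279 with a library left out. Depth limits the low genes most, with 4.21% of genes at a mean of 10 to 50 bounded within 0.5.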
